A study of Mus musculus with 98 samples.

Results

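The daily rhythm of gene expression was described in skeletal muscle of mice whose livers had been repopulated with murine hepatocytes (Mu). It was measured in 12 of the 98 RNA sequencing samples of the series. All 12 are the muscle libraries labelled Mu, 2 at each of zeitgeber times (ZT) 2, 6, 10, 14, 18 and 22, and none was chosen by a measured value. The series sampled liver, muscle and 2 regions of the hypothalamus from mice carrying murine or human (Hu) hepatocytes. The host strain, FRGN, joins homozygous deletions of Fah, Rag2 and Il2rg with the non-obese diabetic background, and both arms carry all of these alleles. The animals were male and 10 weeks old. Hepatocytes had been given by injection into the spleen, and a repopulation of at least 70% is given for every sample. All mice were cycled on nitisinone (NTBC, 8 mg/l), a drug that protects Fah-deficient hepatocytes, with sulfamethoxazole and trimethoprim as antibiotics and 3% dextrose in the water, and ate diet 5LJ5. The host is therefore immunodeficient and drug treated in every group, and muscle from an untreated or unengrafted mouse was not analysed here. The labels do not name the muscle or the light schedule. Nothing in them says that the libraries of a time point came from separate mice, so p-values measure the spread between these samples, which may be technical.

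Skeletal muscle holds its own circadian clock. ARNTL (BMAL1) pairs with CLOCK or NPAS2 and switches on genes through E-box sequences, among them those of the PER and CRY proteins, which then repress the pair. The nuclear receptors REV-ERB-alpha and REV-ERB-beta (Nr1d1, Nr1d2) repress Arntl through ROR elements, and factors of the PAR bZIP family act on D-boxes. In muscle this clock is known for its ties to glucose use, insulin response and the switch between fuels across the cycle of feeding and fasting.

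Libraries held 50.9 to 79.6 M (mega) counts, and 15966 to 16637 genes had a count. Log2 CPM (counts scaled to a common library size) of the libraries of 1 time point correlated with r between 0.983 and 0.996 across genes, which are not independent replicates. Between libraries of different time points r ranged from 0.973 to 0.997. In no pair of libraries did more than 0.645% of genes have equal counts. The skeletal muscle markers Ckm, Acta1, Mb, Des, Myh4, Myh1, Tnnt3 and Actn3 summed to between 94561 and 143894 CPM. Of the genes deleted in the strain, Fah ranged from 0.241 to 3.72 CPM, Rag2 from 0.734 to 1.28 CPM and Il2rg from 0.949 to 1.99 CPM. Muscle with intact alleles was not analysed, so these levels do not check the deletions. Some libraries stood apart in the RNA of other cells or fibres. The 10 fat cell markers summed to 4680 CPM in ZT 2 replicate 2 against a median of 1411, and the 10 slow fibre markers ranged from 239 to 2840 CPM. Their sum was higher in replicate 1 than in replicate 2 at 6 of 6 time points. The part of this difference in the results was not tested beyond the covariate fit and a fit with the replicate number as a block. The 6 hepatocyte markers summed to 188.8 CPM in ZT 14 replicate 1 against a median of 2.68.

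A 24 h cosine on ZT was fitted to each gene across the 12 libraries and tested with edgeR's quasi-likelihood test. Of 14339 genes tested, 1682 were rhythmic at a Benjamini-Hochberg adjusted p below 0.05, a share of 11.7%. At an unadjusted p under 0.05 there were 4915 genes. Amplitude is given as the log2 distance from the fitted mean to the peak, so that 0.5 means a peak 2 times the trough. Over the rhythmic genes the median log2 amplitude was 0.33, with quartiles of 0.23 and 0.52 and a range of 0.11 to 2.78. The median over all genes tested was 0.17. Large rhythms were few, since 455 genes (27.1% of the rhythmic ones) reached 0.5 and 98 (5.83%) reached 1.

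Peaks lay around the clock, and their median SE was 0.769 h. By windows of 4 h, 254 rhythmic genes peaked at ZT 0 to 4, 153 at ZT 4 to 8, 278 at ZT 8 to 12, 269 at ZT 12 to 16, 398 at ZT 16 to 20 and 330 at ZT 20 to 24. Which window held the most depended on single libraries: it was ZT 20 to 24 without ZT 2 replicate 2 (388, against 370 at ZT 16 to 20) or ZT 18 replicate 1 (247 against 200), ZT 0 to 4 without ZT 2 replicate 1 (330 against 307), and ZT 12 to 16 without ZT 6 replicate 2 (294 against 291). The largest amplitudes were placed differently. Of the 455 genes at 0.5 or above, 113 peaked at ZT 0 to 4 and 37 at ZT 8 to 12, and the median amplitude was 0.46 in the first window and 0.25 in the second. The count of rhythmic genes depended on single libraries: it was 1022 without ZT 10 replicate 2, 972 without ZT 14 replicate 1, 867 without ZT 14 replicate 2, 1060 without ZT 18 replicate 1, 921 without ZT 22 replicate 1 and 883 without ZT 22 replicate 2. The count was 1524 without ZT 2 replicate 2, the library high in fat cell markers. Fitted with a score for slow fibre markers and one for fat cell markers as covariates, 1884 genes (13.1%) were rhythmic, 1258 of them among the 1682. Those 1258 held 127 of the 254 genes that peaked at ZT 0 to 4, 59.5% of the genes at ZT 4 to 8, 65.4% at ZT 12 to 16 and 74.1% at ZT 16 to 20, but 94.2% at ZT 8 to 12 and 93.0% at ZT 20 to 24.

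**Figure D1:**
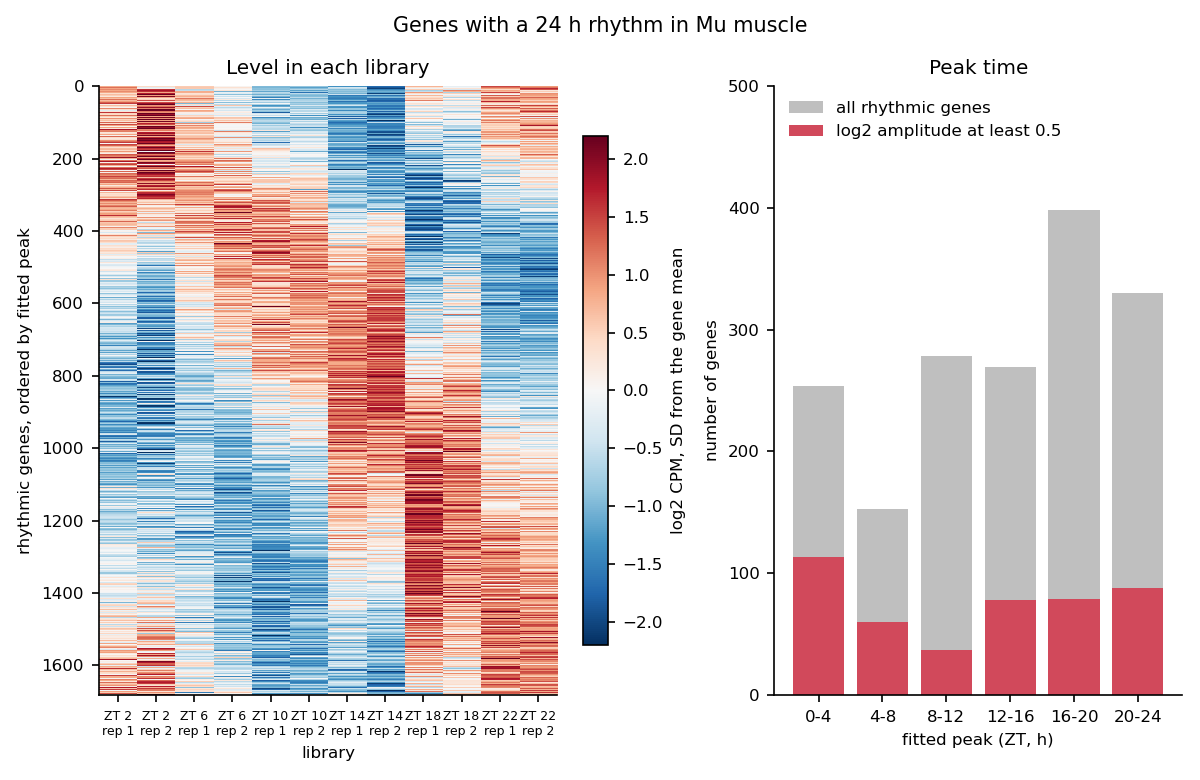
Left, the level of each of the 1682 rhythmic genes (rows, ordered by fitted peak) in each of the 12 libraries (columns), as log2 CPM in SD from the gene's mean. Right, the number of rhythmic genes by 4 h window of fitted peak, in grey for all and in red for a log2 amplitude of at least 0.5. The window of ZT 16 to 20 holds the most genes (398) with all 12 libraries, and that of ZT 0 to 4 the most of large amplitude (113).

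Most clock genes had a rhythm. Of the 20 clock genes tested, 16 were rhythmic (80.0%, against 11.7% of all genes tested), with a median log2 amplitude of 0.91 over the 20. Arntl2, Bhlhe40 and Rora were among those that did not pass. The activators peaked around the turn of the cycle and Nr1d1 next, the period genes and the D-box activators peaked in overlapping hours after it, and Cry1 and Nfil3 came last.

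Among the activators, 3 of 4 were rhythmic and peaked between ZT 23 and ZT 0.351. Arntl, on chr7:113207465-113314126 (GRCm38), stood at 41.9 and 34.7 CPM at ZT 2, 32.9 and 19 at ZT 6, 3.55 and 4.67 at ZT 10, 12.7 and 7.11 at ZT 14, 39.5 and 36.1 at ZT 18, and 48.1 and 42.4 at ZT 22. Both libraries of ZT 10 lay below every other library. Those of ZT 22 were the highest, and the libraries of ZT 18 and ZT 2 overlapped under them. Its amplitude was 1.64 ± 0.27 (SE) with a peak at ZT 23 ± 0.623 h (SE) (edgeR adjusted p = 0.0128). Npas2, the partner that can take the place of CLOCK, had the widest swing of the 4 activators, 5.85 and 5.01 CPM at ZT 2, 2.94 and 1.37 at ZT 6, 0.235 and 0.194 at ZT 10, 0.239 and 0.276 at ZT 14, 1.52 and 1.01 at ZT 18, and 4.68 and 4.57 at ZT 22. The libraries of ZT 2 and ZT 22 did not overlap with those of the other times, and ZT 10 and ZT 14 could not be told apart. Its amplitude of 2.46 ± 0.18 (SE) corresponds to a fitted peak 30.4 times the trough (adjusted p = 0.000246). Of the 3, Clock moved least, between 21 CPM at ZT 10 and 51.5 CPM at ZT 2, with an amplitude of 0.60 ± 0.06 (SE) and a peak at ZT 23.8 ± 0.400 h (SE) (adjusted p = 0.000946). Arntl2, a relative of Arntl, had an amplitude of 0.34 (adjusted p = 0.146).

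The nuclear receptors that repress Arntl peaked at 2 different times. Nr1d1, on chr11:98767932-98775333, stood at 177 and 177 CPM at ZT 2, 261 and 271 at ZT 6, 129.8 and 136 at ZT 10, 23.9 and 27.9 at ZT 14, 18 and 27.6 at ZT 18, and 61.7 and 38.2 at ZT 22. The libraries of ZT 6 were the highest and those of ZT 14 and ZT 18 the lowest, with no overlap between the highest and lowest times. Its amplitude was 1.93 ± 0.12 (SE) and its peak ZT 5.24 ± 0.230 h (SE) (adjusted p = 4.80e-05). Nr1d2, on chr14:18204054-18239127, followed, with 58.8 and 61.9 CPM at ZT 2, 108 and 117 at ZT 6, 165 and 180.0 at ZT 10, 128 and 159 at ZT 14, 97.6 and 81.2 at ZT 18, and 60.0 and 54.3 at ZT 22. It was highest at ZT 10 and lowest at ZT 2 and ZT 22, which overlapped with each other. The amplitude of 0.84 ± 0.05 (SE) was smaller than that of Nr1d1, and the peak of ZT 11.2 ± 0.233 h (SE) was later by several times either SE (adjusted p = 4.80e-05). Nr1d1 overlaps Thra on the opposite strand, and the counting setting for strand is not given in the sources used here, so part of its counts could belong to that gene. Rora, an activator through the same element, had an amplitude of 0.26 (adjusted p = 0.0754).

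In the repressor arm, 7 of 8 genes were rhythmic. Per2 had 0.736 and 1.43 CPM at ZT 2, 5.45 and 4.27 at ZT 6, 32 and 29.1 at ZT 10, 35.6 and 36.2 at ZT 14, 33.7 and 18.8 at ZT 18, and 5.68 and 6.71 at ZT 22. Its libraries at ZT 10, 14 and 18 formed 1 high group, and the libraries of ZT 2 were the lowest of the 12. The amplitude was 2.48 ± 0.27 (SE) and the peak ZT 14 ± 0.410 h (SE) (adjusted p = 0.00103). Per1 had 3.17 and 6.25 CPM at ZT 2, 26.8 and 23.5 at ZT 6, 102 and 61.1 at ZT 10, 29.7 and 63.8 at ZT 14, 14.8 and 23.4 at ZT 18, and 11.5 and 13.8 at ZT 22, with the lowest pair at ZT 2 and 1 library of ZT 14 close to the pair of ZT 6. It peaked at ZT 11.9 ± 0.665 h (SE) with an amplitude of 1.71 ± 0.30 (SE) (adjusted p = 0.00674). Per3 had 4.78 and 7.67 CPM at ZT 2, 12.7 and 18 at ZT 6, 49 and 56.3 at ZT 10, 30.6 and 32 at ZT 14, 14.2 and 12.9 at ZT 18, and 8.89 and 9.25 at ZT 22. Both libraries of ZT 10 were above all others, and its amplitude of 1.42 ± 0.17 (SE) and peak of ZT 11.8 ± 0.446 h (SE) placed it beside Per1 within their SEs (adjusted p = 0.000923).

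Ciart, which encodes the repressor CHRONO, showed a narrow peak, with 1.08 and 0.837 CPM at ZT 2, 2.34 and 3.69 at ZT 6, 22.8 and 15.1 at ZT 10, 2.06 and 5.04 at ZT 14, 2.30 and 1.65 at ZT 18, and 0.846 and 1.38 at ZT 22. Only the ZT 10 libraries exceeded 10 CPM, and the fitted cosine (amplitude 1.77 ± 0.34 (SE), peak ZT 10.7 ± 0.744 h (SE), adjusted p = 0.0055) lies below them. Cry1 was the last of the repressors, with 19.4 and 22.9 CPM at ZT 2, 17 and 16.3 at ZT 6, 15.9 and 15.3 at ZT 10, 24.3 and 23.1 at ZT 14, 37.5 and 32.4 at ZT 18, and 36.5 and 33.1 at ZT 22. The libraries of ZT 18 and ZT 22 lay above all others, for an amplitude of 0.64 ± 0.05 (SE) and a peak at ZT 19.8 ± 0.271 h (SE) (adjusted p = 0.000105). Cry2 moved less, with an amplitude of 0.40 ± 0.09 (SE), and peaked earlier, at ZT 13 ± 0.848 h (SE) (adjusted p = 0.0228). Bhlhe41, an E-box repressor, peaked at ZT 10.5 with an amplitude of 0.70 (adjusted p = 0.0116), while its relative Bhlhe40 had 0.28 (adjusted p = 0.403).

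All 4 genes listed as PAR bZIP output factors were rhythmic. The 3 PAR bZIP activators of D-boxes peaked between ZT 10.6 and ZT 13. Nfil3, a bZIP repressor outside the PAR family, peaked at ZT 19.6. Dbp, on chr7:45705088-45710203, had 9.53 and 14.8 CPM at ZT 2, 70.6 and 101 at ZT 6, 205 and 199 at ZT 10, 58.9 and 97.4 at ZT 14, 30.2 and 25.6 at ZT 18, and 13.7 and 15 at ZT 22. The ZT 10 libraries were more than 10 times those of ZT 2, and no library of another time reached them. Its amplitude was 2.01 ± 0.21 (SE) and its peak ZT 10.6 ± 0.395 h (SE) (adjusted p = 0.000414); Dbp overlaps Sphk2 on the other strand. Tef peaked at ZT 12.3 ± 0.243 h (SE) with an amplitude of 0.67 ± 0.04 (SE) (adjusted p = 6.21e-05), and Hlf at ZT 13 ± 0.486 h (SE) with an amplitude of 0.99 ± 0.13 (SE) (adjusted p = 0.00182). Nfil3, which competes with them for the D-box, had 29.9 and 32 CPM at ZT 2, 28.8 and 14.3 at ZT 6, 11 and 10.3 at ZT 10, 35.4 and 46.1 at ZT 14, 103 and 62.9 at ZT 18, and 49.3 and 41.7 at ZT 22. It was lowest at ZT 10, where Dbp was highest, and highest at ZT 18. Its amplitude was 1.18 ± 0.22 (SE) and its peak ZT 19.6 ± 0.717 h (SE) (adjusted p = 0.0133).

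**Figure D2:**
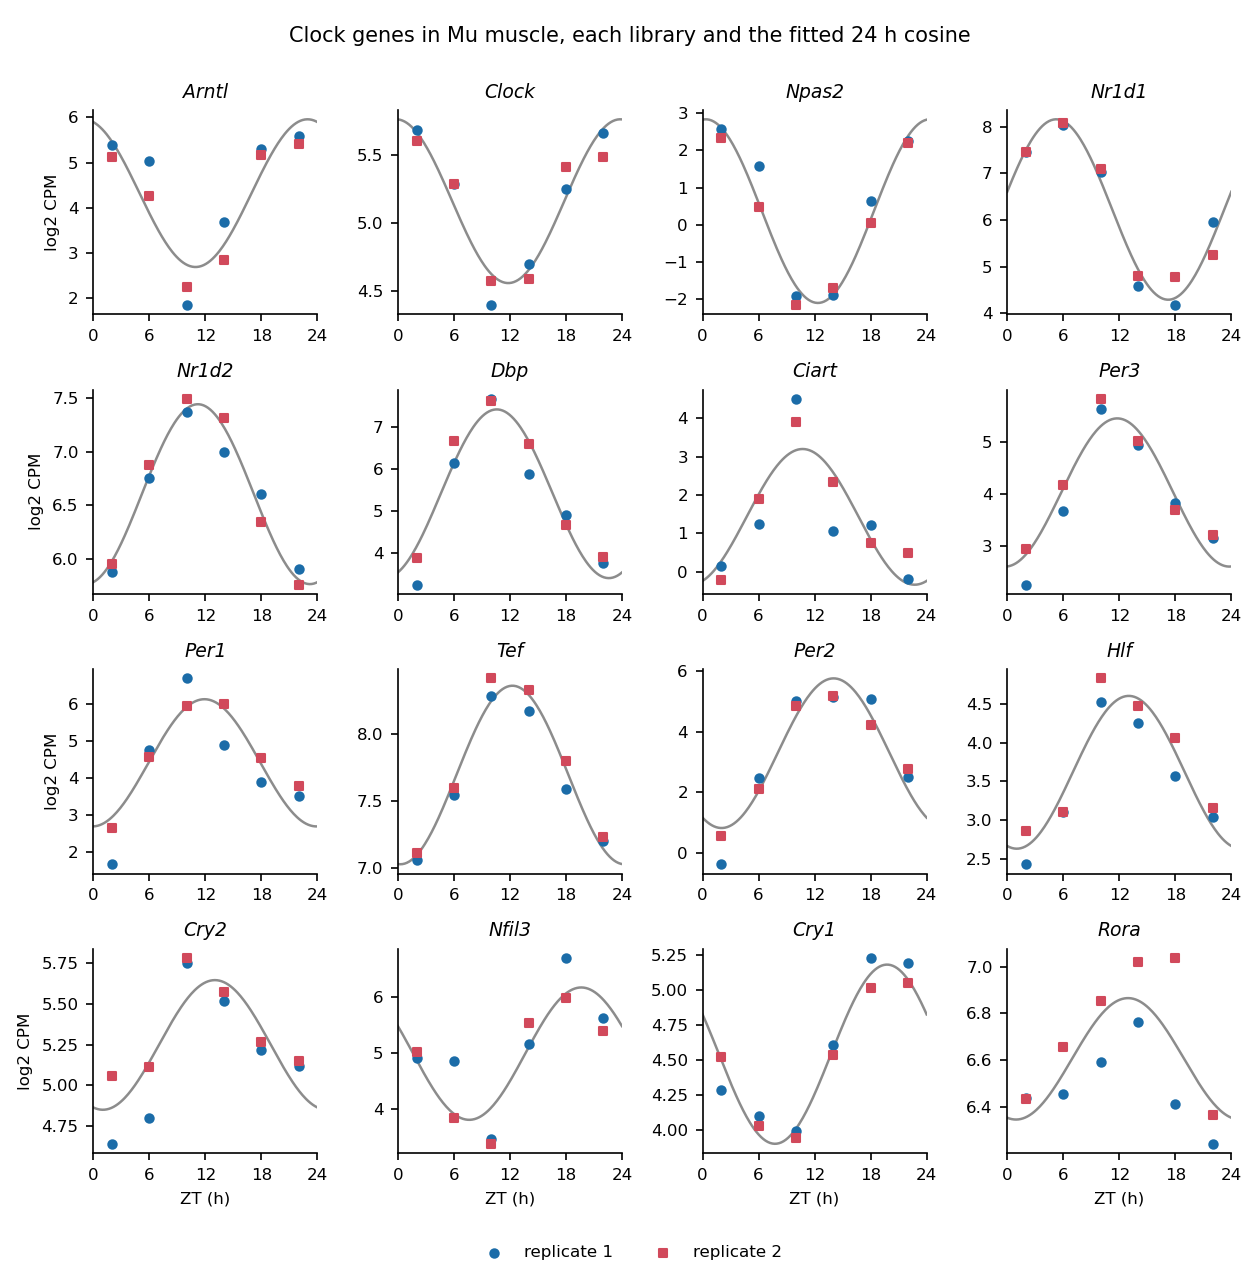
Log2 CPM of 16 clock genes in each Mu muscle library against ZT in hours, with replicate 1 as blue circles and replicate 2 as red squares. The grey line is the 24 h cosine fitted by least squares, from which amplitudes and peaks were taken. Rora, in the last panel, did not pass the test.

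Promoters are shown for 4 of the clock genes that hold a motif of the 3 arms of the loop, since each motif sits in a gene of known peak time. Each line is the 250 bases before a RefSeq transcription start (GRCm38.p6), 5′ to 3′ on the gene's strand, with motif letters in capitals. The motifs searched on both strands were the E-box CACGTG, the D-box TTATGTAA or TTACGTAA, the ROR element TAGGTCA, the cyclic AMP response element TGACGTCA and the heat shock element core GAANNTTC. Ciart, at chr3:95882229-95882478 on the minus strand, holds 3 E-boxes that begin 116, 58 and 44 bases before the start. Tef, at chr15:81802423-81802672 on the plus strand, holds 1 E-box, 127 bases before it. Per3, at chr4:151044666-151044915 on the minus strand, holds 2 D-boxes, 205 and 158 bases before it. Nfil3, at chr13:52981040-52981289 on the minus strand, holds a ROR element 12 bases before it, written on the other strand as TGACCTA.
Ciart: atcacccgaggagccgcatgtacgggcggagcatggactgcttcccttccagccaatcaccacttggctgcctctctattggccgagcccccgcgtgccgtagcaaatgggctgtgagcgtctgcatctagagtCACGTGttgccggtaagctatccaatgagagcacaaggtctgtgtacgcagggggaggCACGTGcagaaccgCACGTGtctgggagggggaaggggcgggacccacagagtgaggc
Tef: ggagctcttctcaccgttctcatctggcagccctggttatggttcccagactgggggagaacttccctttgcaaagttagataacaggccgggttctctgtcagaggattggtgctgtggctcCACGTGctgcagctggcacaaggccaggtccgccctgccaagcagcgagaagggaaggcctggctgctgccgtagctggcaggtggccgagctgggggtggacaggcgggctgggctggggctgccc
Per3: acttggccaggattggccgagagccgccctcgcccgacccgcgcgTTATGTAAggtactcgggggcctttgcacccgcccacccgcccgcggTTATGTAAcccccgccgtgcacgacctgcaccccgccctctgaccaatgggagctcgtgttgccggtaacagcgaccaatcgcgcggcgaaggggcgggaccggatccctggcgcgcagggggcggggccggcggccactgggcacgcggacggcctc
Nfil3: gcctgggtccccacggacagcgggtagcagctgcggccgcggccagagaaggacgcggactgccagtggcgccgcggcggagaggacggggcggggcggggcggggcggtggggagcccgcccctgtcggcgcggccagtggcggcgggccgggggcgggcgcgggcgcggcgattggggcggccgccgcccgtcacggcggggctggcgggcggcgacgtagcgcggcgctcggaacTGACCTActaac
The E-box genes Ciart and Tef peaked at ZT 10.7 and 12.3, the D-box gene Per3 at ZT 11.8 and the ROR element gene Nfil3 at ZT 19.6. E-boxes also stood before a start of Per1 (166 bases), Cry1 (60 bases) and Bhlhe41 (153 bases). A cyclic AMP response element stood 9 bases before the start of Hlf. Cry1, with an E-box, peaked late, near Nfil3 and not near Ciart and Tef. None of the motifs was in the 250 bases before a start of Arntl, Clock, Npas2, Nr1d1, Nr1d2, Dbp or Cry2. Whether peak times follow the motifs was not tested, and only exact letters near a start were searched. Of 24 promoters matched to 18 clock genes, 6 held an E-box within 300 bases (250 before the start and 50 after), and 2 of these 6 belong to Tef. The share was 9.48% of the promoters of all genes tested and 7.15% of all 32851 promoters. A D-box was in 1 of the clock promoters, in 0.746% of tested promoters and in 1.06% of all. A ROR element was in 2 of the clock promoters, in 1.86% of tested promoters and in 2.61% of all. A match of letters is a description and does not show binding.

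Across all rhythmic genes the motif shares were near the background. A promoter was matched to 1290 of the 1678 rhythmic genes that have a symbol. An E-box was in 9.59% of their promoters and in 9.48% of the promoters of all genes tested. By peak window its share was highest at ZT 4 to 8, where 23 of 164 promoters held one, followed by 11.3% at ZT 12 to 16. The D-box was most frequent at ZT 12 to 16 (2.82%, against 0.746% of tested promoters) and the ROR element at ZT 8 to 12 (3.65%, against 1.86%). These windows rest on small numbers of promoters, and no test was made.

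Outside the clock, the genes with the smallest p-values mostly encoded products with no place in the core loop. Mylk4, a kinase of the myosin light chain kinase family, had 521 and 522 CPM at ZT 2, 830.2 and 937 at ZT 6, 1753 and 2064 at ZT 10, 2925 and 3269 at ZT 14, 1301 and 2146 at ZT 18, and 682 and 823 at ZT 22. The ZT 14 libraries were the highest and those of ZT 2 the lowest, without overlap with any other time at either end. Its amplitude was 1.24 ± 0.09 (SE) and its peak ZT 13.6 ± 0.265 h (SE) (adjusted p = 6.21e-05). Usp2, a deubiquitinating enzyme that acts on clock proteins, had 66.2 and 67.3 CPM at ZT 2, 128 and 146 at ZT 6, 332 and 273 at ZT 10, 299 and 332 at ZT 14, 181 and 216 at ZT 18, and 126 and 119 at ZT 22. ZT 10 and ZT 14 overlapped at the top and ZT 2 lay lowest, for an amplitude of 1.07 ± 0.10 (SE) and a peak at ZT 13.2 ± 0.341 h (SE) (adjusted p = 0.000341).

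Smaller but very regular rhythms came with peaks in the hours around ZT 16. Rev1, a DNA polymerase that copies across damaged bases, had an amplitude of 0.49 ± 0.03 (SE) and the tightest peak time of the genes named here, ZT 15.4 ± 0.202 h (SE) (adjusted p = 6.21e-05). Rev1 overlaps Eif5b on the other strand. Ahctf1, which encodes the nuclear pore protein ELYS, peaked at ZT 16.2 ± 0.274 h (SE) with an amplitude of 0.50 (adjusted p = 0.000163). Maco1, an endoplasmic reticulum membrane protein, peaked at ZT 14.6 with an amplitude of 0.50 (adjusted p = 0.000398). Slc25a30, a mitochondrial carrier, had 2.78 and 3.16 CPM at ZT 2, 2.80 and 2.55 at ZT 6, 4.82 and 5.85 at ZT 10, 14.4 and 12.3 at ZT 14, 8.05 and 13.8 at ZT 18, and 5.88 and 5.67 at ZT 22. It was low from ZT 22 through ZT 10 and at least 8 CPM in every library of ZT 14 and ZT 18, with an amplitude of 1.19 ± 0.10 (SE) (adjusted p = 0.000163). Ccdc85b, a coiled-coil protein, peaked earlier, at ZT 10.9 ± 0.240 h (SE), with an amplitude of 0.48 (adjusted p = 0.000131).

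Around the end of the cycle and its start, Rflnb, a regulator of filamin, peaked at ZT 23.4 ± 0.357 h (SE) with an amplitude of 0.74 ± 0.07 (SE) (adjusted p = 0.000414). The zinc finger gene Zfp462 peaked at ZT 23.3 (amplitude 0.57, adjusted p = 0.000749) and Ptpn4, a tyrosine phosphatase, at ZT 0.783 (amplitude 0.64, adjusted p = 0.000869). These peaks lay close to that of Clock. Slc41a3, a magnesium transporter, peaked at ZT 6.04 with an amplitude of 0.52 (adjusted p = 0.00116), close to the peak of Nr1d1.

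Glucose handling was one of the groups with most rhythmic members: 10 of 26 tested passed (38.5%, against 11.7% of all genes), with a median amplitude of 0.31 over the 26. Leaving out any 1 library kept this count between 7 and 11. The members peaked at different times. Pfkfb3 makes the allosteric activator of phosphofructokinase and so drives glycolysis; it had 417 and 505 CPM at ZT 2, 479 and 570.4 at ZT 6, 333 and 293 at ZT 10, 36.6 and 28.9 at ZT 14, 46.5 and 73.2 at ZT 18, and 81.5 and 102 at ZT 22. All 6 libraries of ZT 2 to ZT 10 lay above all 6 of ZT 14 to ZT 22. Its amplitude was 2.07 ± 0.24 (SE), a fitted peak 17.7 times the trough, and its peak was at ZT 4.90 ± 0.436 h (SE) (adjusted p = 0.00158). Txnip, an inhibitor of glucose uptake, peaked with it, at ZT 5.22 ± 0.637 h (SE), ranging from 288 CPM at ZT 18 to 1075 CPM at ZT 2 (amplitude 0.70 ± 0.12 (SE), adjusted p = 0.00773).

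The other side of the cycle held genes of glucose transport and glycogen. Tbc1d1, a brake on the movement of glucose transporters to the surface, had 80.5 and 41.2 CPM at ZT 2, 64.1 and 50.3 at ZT 6, 65.7 and 52.3 at ZT 10, 209 and 153 at ZT 14, 196 and 196 at ZT 18, and 114 and 161 at ZT 22. The 6 libraries of ZT 14 to ZT 22 lay above the 6 of ZT 2 to ZT 10, for an amplitude of 1.08 ± 0.16 (SE) and a peak at ZT 17.6 ± 0.552 h (SE) (adjusted p = 0.0033). Ppp1r3c, which targets protein phosphatase 1 to glycogen, had 355 and 308 CPM at ZT 2, 268 and 218 at ZT 6, 73.1 and 123 at ZT 10, 667 and 554 at ZT 14, 831 and 895 at ZT 18, and 771 and 669.9 at ZT 22. It was lowest at ZT 10 and at least 554 CPM in each library from ZT 14 to ZT 22, with an amplitude of 1.38 ± 0.25 (SE) and a peak at ZT 19.7 ± 0.692 h (SE) (adjusted p = 0.0117).

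The remaining rhythmic members of the glucose list were Pfkfb1, Slc16a1, Ppp1r3a, Pdk4, Pdp1 and Pfkfb4, with amplitudes from 0.36 (Ppp1r3a) to 1.71 (Pdk4). Pdk4, named after its values were seen, encodes the kinase that shuts down pyruvate dehydrogenase, and it ranged from 121 to 2729.8 CPM with a peak at ZT 6.65 (adjusted p = 0.0276). Its replicates 1 and 2 lay apart, at 11.4 and 9.20 log2 CPM at ZT 2, 11.2 and 9.96 at ZT 6, and 10.0 and 9.02 at ZT 10. At ZT 14 replicate 2 was the higher (8.57 and 8.88). Pdp1, the phosphatase that reopens the same enzyme, peaked at ZT 10.1 with an amplitude of 0.45 (adjusted p = 0.0292). The lactate transporter gene Slc16a1 peaked at ZT 20.3 (amplitude 0.49, adjusted p = 0.0161). The main glucose transporter of muscle, Slc2a4, had an amplitude of 0.17 (adjusted p = 0.0917), and Hk2, the muscle hexokinase, one of 0.40 (adjusted p = 0.087).

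Genes known to respond to glucocorticoids had the largest share outside the clock: 12 of 19 tested were rhythmic (63.2%, against 11.7% of all genes), with a median amplitude of 0.58. Of these, Per1, Angptl4, Ddit4 and Pdk4 also belong to other lists. The count stayed between 10 and 13 whichever library was left out. Tsc22d3, which encodes the glucocorticoid-induced leucine zipper, had 100.1 and 81 CPM at ZT 2, 95.9 and 86.7 at ZT 6, 155 and 163 at ZT 10, 251 and 287 at ZT 14, 171 and 230.2 at ZT 18, and 119.9 and 130.0 at ZT 22. Libraries of ZT 14 were the highest and those of ZT 2 and ZT 6 the lowest, with an amplitude of 0.80 ± 0.07 (SE) and a peak at ZT 15.1 ± 0.338 h (SE) (adjusted p = 0.000256). Fkbp5, a co-chaperone of the receptor, peaked at ZT 17.8 (amplitude 0.97, adjusted p = 0.0161), and the receptor gene Nr3c1 at ZT 17.7 (amplitude 0.37, adjusted p = 0.00625).

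The list did not peak as a block. Gadd45g, a stress gene, peaked at ZT 10.6 ± 0.412 h (SE) with an amplitude of 1.07 ± 0.12 (SE) (adjusted p = 0.000838), together with the transcription factor gene Klf9 (ZT 10.7, amplitude 0.42, adjusted p = 0.00358) and the kinase gene Sgk1 (ZT 11.6, amplitude 0.64, adjusted p = 0.0112). Cdkn1a, the cell cycle inhibitor p21, had 44.8 and 35.2 CPM at ZT 2, 21.7 and 32.1 at ZT 6, 15 and 16.2 at ZT 10, 12.4 and 12.2 at ZT 14, 21.9 and 22 at ZT 18, and 26.9 and 36.2 at ZT 22. Libraries of ZT 14 were the lowest, those of ZT 2 and ZT 22 overlapped, and its amplitude was 0.80 ± 0.09 (SE) with a peak at ZT 0.977 ± 0.419 h (SE) (adjusted p = 0.00091). In all, 5 members peaked at ZT 8 to 12, 3 at ZT 16 to 20, 2 at ZT 0 to 4, and 1 each at ZT 4 to 8 and ZT 12 to 16.

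Among genes that act on lipids, G0s2 and Angptl4 had wide swings. G0s2, the inhibitor of the triglyceride lipase ATGL, had 22.9 and 24.7 CPM at ZT 2, 8.21 and 5.91 at ZT 6, 9.60 and 9.35 at ZT 10, 128 and 71.9 at ZT 14, 138 and 120.0 at ZT 18, and 120.2 and 102 at ZT 22. Its 6 libraries of ZT 14 to ZT 22 lay above the other 6, for an amplitude of 2.37 ± 0.20 (SE) and a peak at ZT 18.7 ± 0.322 h (SE) (adjusted p = 0.000398). Angptl4, a secreted inhibitor of lipoprotein lipase, had 66 and 78.5 CPM at ZT 2, 39.6 and 9.66 at ZT 6, 5.26 and 5.50 at ZT 10, 1.54 and 0.535 at ZT 14, 1.10 and 3.14 at ZT 18, and 0.996 and 4.57 at ZT 22. It had the largest amplitude of all rhythmic genes, 2.78 ± 0.54 (SE), and peaked at ZT 3.94 ± 0.743 h (SE) (adjusted p = 0.0055). With the fibre and fat covariates the amplitude of Angptl4 was 1.94 (adjusted p = 0.0124), and that of G0s2 was 2.37 (adjusted p = 0.00172).

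Few other genes of fatty acid uptake and oxidation were rhythmic. Of 28 tested, 4 passed (14.3%), close to the 11.7% of all genes, and their number fell to 2 or 1 without ZT 2 replicate 2, ZT 10 replicate 2, ZT 14 replicate 2, ZT 18 replicate 1 or either library of ZT 22. Besides Angptl4 they were the nuclear receptor genes Ppard (amplitude 0.28, peak ZT 18.4, adjusted p = 0.0181) and Ppara (amplitude 0.58, peak ZT 17, adjusted p = 0.0495) and the fatty acid transporter gene Cd36 (amplitude 0.31, peak ZT 1.22, adjusted p = 0.0487). Cd36 and Ppara did not pass with the covariates, at adjusted p = 0.102 and 0.0769.

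A set of genes that peaked at ZT 2 to 5 moved with the fat cell markers. In ZT 2 replicate 2 the 18 genes of fatty acid and triglyceride synthesis summed to 30191 CPM, against a median of 2182 CPM over the 12 libraries. Acaca, the first enzyme of fatty acid synthesis, had 52.3 and 1213 CPM at ZT 2, 178 and 37.5 at ZT 6, 56.3 and 31.7 at ZT 10, 38 and 18.9 at ZT 14, 27.8 and 49.9 at ZT 18, and 41 and 53.1 at ZT 22; the value of ZT 2 replicate 2 was far above that of ZT 2 replicate 1. Its amplitude was 1.32 ± 0.56 (SE) (adjusted p = 0.0428), 0.67 without that library (adjusted p = 0.143) and 0.35 with the covariates (adjusted p = 0.601). Adrb3, the beta-3 adrenergic receptor of fat cells, had 1.83 and 59.6 CPM at ZT 2, 15 and 1.42 at ZT 6, 1.32 and 1.34 at ZT 10, 0.597 and 0.0345 at ZT 14, 0.611 and 2.60 at ZT 18, and 0.320 and 2.66 at ZT 22. Its amplitude of 2.23 ± 0.85 (SE) (adjusted p = 0.0427) was 1.59 without the library (adjusted p = 0.18) and 0.34 with covariates (adjusted p = 0.373).

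Pck1, which serves glycerol synthesis in fat cells, Klb, a co-receptor of FGF hormones, and Hcar2, a receptor for ketone bodies, moved in the same libraries. Without ZT 2 replicate 2 their adjusted p was 0.0814, 0.15 and 0.11, and with covariates their amplitudes went from 2.51 to 0.68, from 2.12 to 0.75 and from 2.23 to 0.53. Pck1 still passed with the covariates (adjusted p = 0.0475). Of the 10 fat cell markers, 2 were rhythmic, Adrb3 and Pck1 (20.0%, against 11.7% of all genes). The count was 1 without ZT 18 replicate 2. It was 0 without ZT 2 replicate 2, ZT 6 replicate 1, ZT 18 replicate 1, ZT 22 replicate 2 or any library of ZT 10 or 14. The list's median amplitude was 1.44, and the markers' summed level ranged from 569 CPM in ZT 18 replicate 1 to 4680 CPM in ZT 2 replicate 2. The defining markers were never at 0: Adipoq ranged from 1.26 to 118 CPM and Plin1 from 0.811 to 272 CPM. The fat cell score is built from the same 10 markers, so the covariate fit is no separate check for Adrb3 and Pck1. Whether more fat cells or more RNA per fat cell was sampled cannot be told apart.

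**Figure D3:**
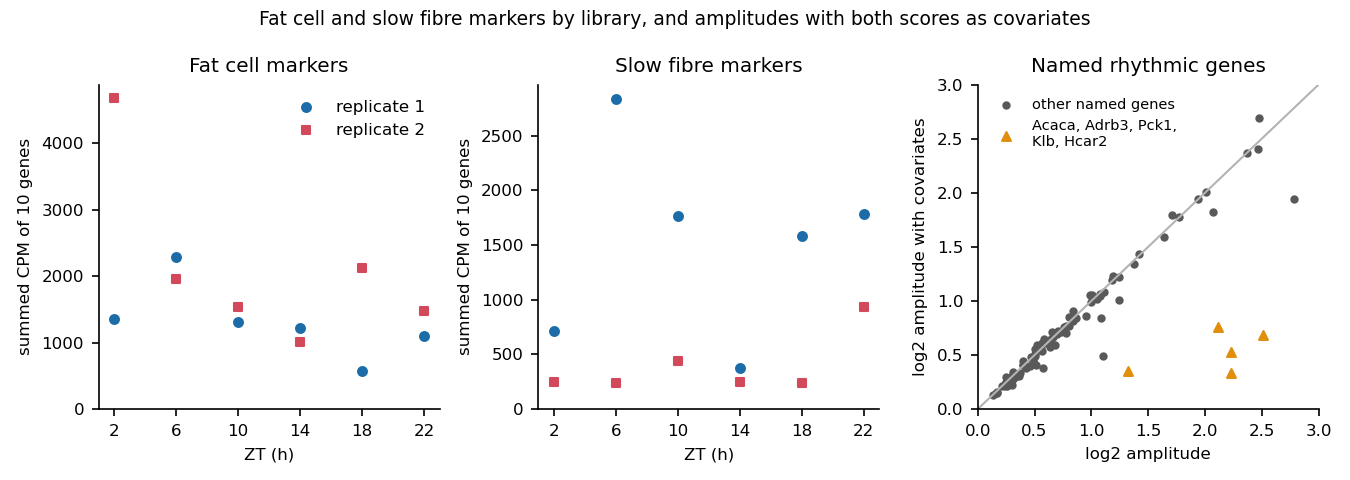
Left and centre, summed CPM of the 10 fat cell markers and of the 10 slow fibre markers in each library against ZT in hours (blue circles, replicate 1; red squares, replicate 2). Right, the log2 amplitude of each named rhythmic gene without (x) and with (y) both marker scores as covariates; the line marks equality, and the orange triangles are 5 genes picked after their values were seen. ZT 2 replicate 2 is the highest in fat cell markers, at 4680 CPM, and the orange genes fall from above 1.3 to below 0.8.

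Sterol genes were rhythmic in 4 of 22 cases (18.2%, against 11.7% of all genes). This rested on single libraries: 11 passed without ZT 2 replicate 1, 0 without ZT 10 replicate 2, ZT 14 replicate 2 or ZT 22 replicate 2, 1 without ZT 10 replicate 1, and 2 without ZT 14 replicate 1, ZT 18 replicate 1 or ZT 22 replicate 1. Srebf2, the regulator of the pathway, peaked at ZT 23.2 (amplitude 0.34, adjusted p = 0.0225). Sqle, a later enzyme, ranged from 0.736 to 11.3 CPM, with the highest value in ZT 2 replicate 2, and had an adjusted p of 0.0279 with and 0.065 without that library. Gpam, the acyltransferase that starts triglyceride synthesis, was the second of 2 rhythmic genes among the 18 of the synthesis list (0 to 8 with 1 library left out), at ZT 9.87 with an amplitude of 0.41 (adjusted p = 0.026).

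Of 22 amino acid genes tested, 6 were rhythmic (27.3%, against 11.7% of all genes, and 3 without ZT 14 replicate 2). Their peaks lay at ZT 2.77 for the serine synthesis gene Psat1, at ZT 11.9 for Amd1, which serves polyamine synthesis, and between ZT 13.6 and ZT 18 for the other 4. Glul, glutamine synthetase, had 187 and 334 CPM at ZT 2, 183 and 162 at ZT 6, 304 and 286 at ZT 10, 685 and 792 at ZT 14, 427 and 409 at ZT 18, and 244 and 229 at ZT 22. The ZT 14 libraries were the highest by a wide margin, ZT 2 replicate 2 lay above ZT 2 replicate 1, and the amplitude was 0.83 ± 0.18 (SE) with a peak at ZT 15.3 ± 0.806 h (SE) (adjusted p = 0.0186). The transporter gene Slc7a8 also stood out at ZT 14 and peaked at ZT 15.5 (amplitude 0.73, adjusted p = 0.00573). Slc38a2, a transporter of small neutral amino acids, peaked at ZT 18, with 719.6 CPM in ZT 18 replicate 1 and a median of 205 CPM (amplitude 0.84, adjusted p = 0.0241). Prodh, which starts the breakdown of proline, peaked at ZT 13.6 (amplitude 0.64, adjusted p = 0.00783).

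In protein breakdown and autophagy 5 of 23 genes passed (21.7%, against 11.7% of all genes). The count fell to 3 or 2 without ZT 6 replicate 1, ZT 10 replicate 1 or any library of ZT 14, 18 or 22. Ddit4, an inhibitor of mTORC1, had the largest amplitude, 0.78 ± 0.17 (SE), ranging from 4.78 CPM at ZT 2 to 18.5 CPM at ZT 10 (peak ZT 11 ± 0.815 h (SE), adjusted p = 0.0158). Foxo3, a transcription factor that drives atrophy genes, peaked at ZT 15.3 with an amplitude of 0.24 (adjusted p = 0.0186). The ubiquitin ligase genes Fbxo21 and Fbxo31 had amplitudes of 0.31 and 0.25 (adjusted p = 0.0383 and 0.0395), with peaks at ZT 7.33 and ZT 12.2. The 2 ligases most used as atrophy markers did not pass: Fbxo32 had an amplitude of 0.55 (adjusted p = 0.0668) and Trim63 of 0.27 (adjusted p = 0.138).

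Regulators of muscle identity and structure held 6 rhythmic genes of 23 (26.1%, against 11.7% of all genes, and 3 without ZT 22 replicate 2). Tcap, the titin cap protein of the sarcomere, had 1599 and 925 CPM at ZT 2, 2102 and 2185 at ZT 6, 3326 and 2929 at ZT 10, 3079 and 3457 at ZT 14, 2663 and 2106 at ZT 18, and 1815 and 1579 at ZT 22. It was lowest in ZT 2 replicate 2 and highest at ZT 10 and ZT 14, whose libraries overlapped, with an amplitude of 0.68 ± 0.10 (SE) and a peak at ZT 12.8 ± 0.579 h (SE) (adjusted p = 0.00544). Myod1, the myogenic factor that keeps muscle identity, had 16.5 and 16.2 CPM at ZT 2, 13.6 and 12.6 at ZT 6, 10.0 and 15.1 at ZT 10, 70.4 and 51 at ZT 14, 34.1 and 49.1 at ZT 18, and 22.4 and 24.6 at ZT 22. The libraries of ZT 14 and ZT 18 lay above all others, for an amplitude of 1.05 ± 0.21 (SE) and a peak at ZT 17 ± 0.770 h (SE) (adjusted p = 0.0104). Its relative Myf6, abundant in mature fibres, peaked at ZT 18.4 with an amplitude of 0.46 (adjusted p = 0.0162). Fhl3, a LIM protein, peaked earlier, at ZT 10.8 (amplitude 0.42, adjusted p = 0.0162).

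Excitation and calcium handling had 8 rhythmic genes of 26 (30.8%, against 11.7% of all genes), mostly of small amplitude, with a list median of 0.25. The count fell to 2 without ZT 10 replicate 2 or either library of ZT 22, and to 3 without either library of ZT 14. Clcn1, the chloride channel that sets the resting state of the fibre, had 173 and 162 CPM at ZT 2, 171 and 215 at ZT 6, 222 and 251 at ZT 10, 267 and 267 at ZT 14, 179 and 205 at ZT 18, and 163 and 155 at ZT 22. It was highest at ZT 14 and lowest at ZT 2 and ZT 22, with an amplitude of 0.36 ± 0.05 (SE) and a peak at ZT 12.2 ± 0.555 h (SE) (adjusted p = 0.0051). Musk, the receptor kinase that organises the neuromuscular junction, ranged from 7.39 CPM at ZT 2 to 22.9 CPM at ZT 18 (amplitude 0.58 ± 0.10 (SE), peak ZT 16.2 ± 0.690 h (SE), adjusted p = 0.0104). Jph2, which holds the calcium store against the surface membrane, and Trdn, which anchors the release channel, peaked at ZT 9.97 and ZT 11.5 with amplitudes of 0.32 and 0.25 (adjusted p = 0.0215 and 0.0283).

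**Figure D4:**
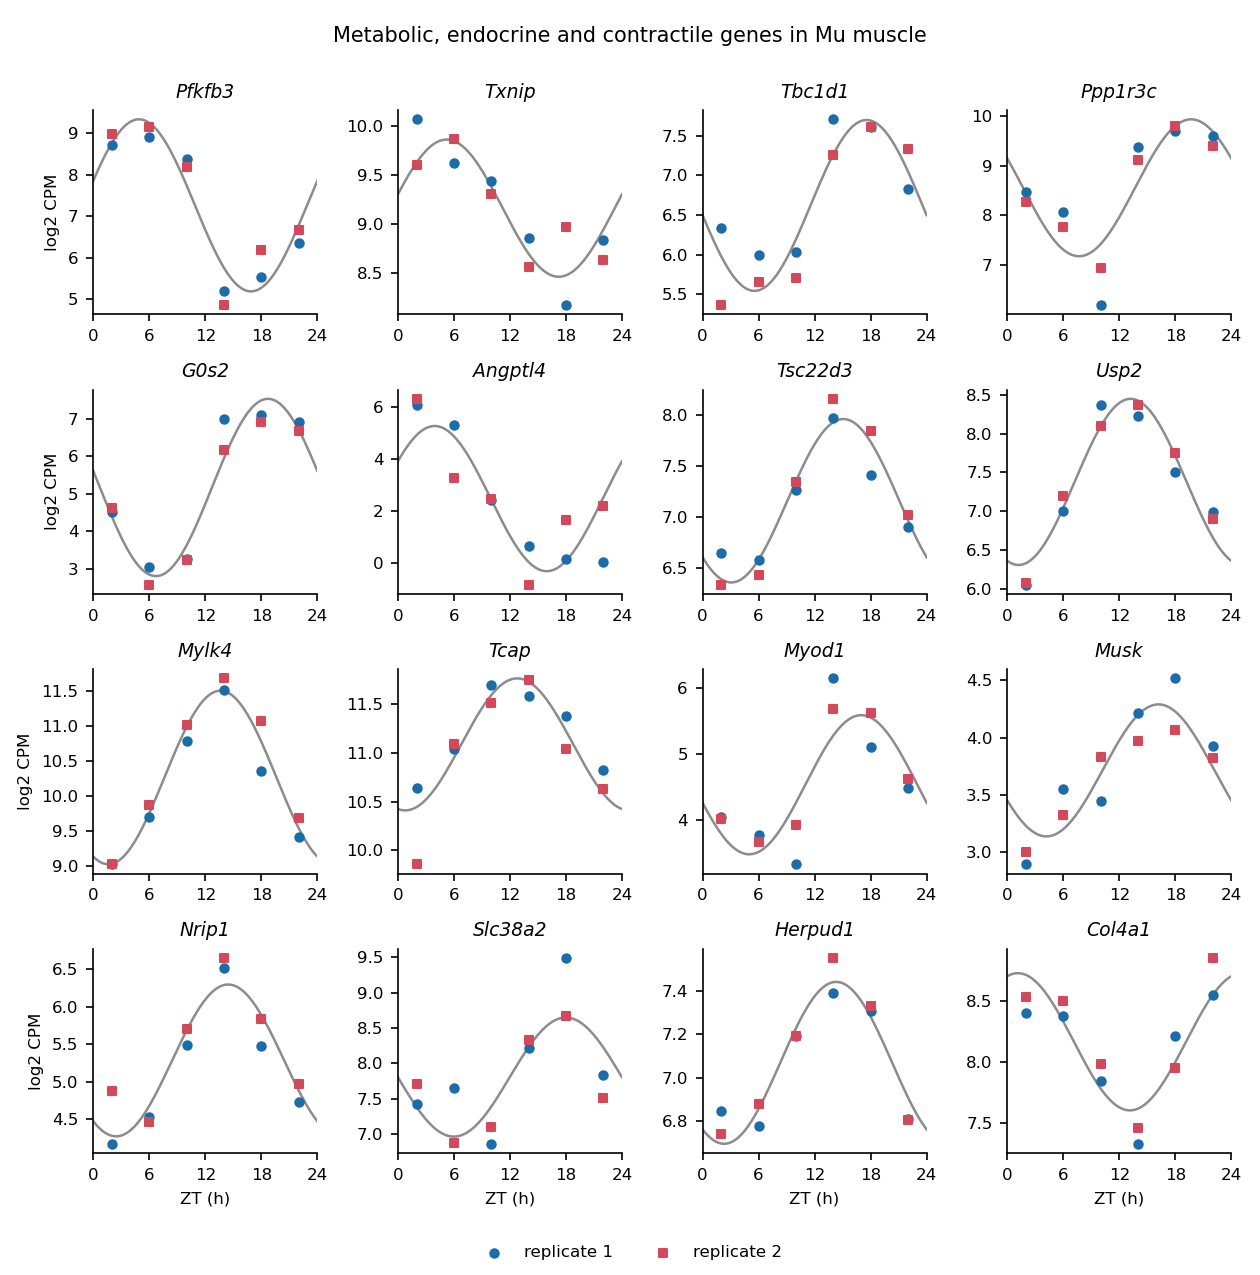
Log2 CPM of 16 rhythmic genes outside the core clock in each library against ZT in hours (blue circles, replicate 1; red squares, replicate 2), with the 24 h cosine fitted by least squares in grey. Pfkfb3, Txnip and Angptl4 are high from ZT 2 to ZT 6, Mylk4, Usp2 and Tcap around ZT 10 to 14, and G0s2, Tbc1d1 and Ppp1r3c from ZT 14 to ZT 22.

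The unfolded protein response list had 8 rhythmic genes of 21 (38.1%, against 11.7% of all genes), with 4 to 11 when 1 library was left out. The count fell to 5 without ZT 10 replicate 1, ZT 14 replicate 1, ZT 22 replicate 1 or either library of ZT 2. It fell to 4 without ZT 10 replicate 2, ZT 14 replicate 2 or ZT 18 replicate 2. Of the 8, Trib3, a pseudokinase induced by stress, peaked at ZT 0.479 (adjusted p = 0.0386) and the other 7 between ZT 14.3 and ZT 20.1. Herpud1, which serves the disposal of proteins from the endoplasmic reticulum, ranged from 107 CPM at ZT 2 to 188 CPM at ZT 14 (amplitude 0.37 ± 0.04 (SE), peak ZT 14.3 ± 0.373 h (SE), adjusted p = 0.00121). Ddit3, the stress factor CHOP, had 10.9 and 13.3 CPM at ZT 2, 10.3 and 13.2 at ZT 6, 16.5 and 14.9 at ZT 10, 29.6 and 22.2 at ZT 14, 30.6 and 26.7 at ZT 18, and 29.3 and 28.4 at ZT 22. It was low through ZT 10 and higher in each of the 6 libraries from ZT 14 on, with an amplitude of 0.76 ± 0.10 (SE) and a peak at ZT 17.7 ± 0.502 h (SE) (adjusted p = 0.00243); it overlaps Mars on the other strand. Atf4, the transcription factor upstream of CHOP, peaked at ZT 16.3 with an amplitude of 0.25 (adjusted p = 0.0211).

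Of the temperature and heat shock genes 4 of 27 passed (14.8%), near the background, and the count ran from 1 without ZT 2 replicate 1, ZT 14 replicate 2, ZT 18 replicate 1 or ZT 22 replicate 1 to 12 without ZT 6 replicate 1. It was 2 without ZT 6 replicate 2, either library of ZT 10, ZT 14 replicate 1, ZT 18 replicate 2 or ZT 22 replicate 2. The HSP40 genes Dnajb1, Dnajb4 and Dnajb5 peaked between ZT 15.4 and ZT 18, with adjusted p of 0.0495, 0.0387 and 0.0286. The splicing factor gene Srsf5 peaked at ZT 6.38 (amplitude 0.48, adjusted p = 0.0186), with its highest values in both libraries of ZT 10. Dnajb4 reached 278 CPM in ZT 18 replicate 1, far above its partner library. Immediate early genes were rhythmic in 5 of 21 cases (23.8%, against 11.7% of all genes). The count was 10 without ZT 6 replicate 1, 2 without ZT 14 replicate 2 or ZT 18 replicate 1, and 3 without ZT 18 replicate 2 or ZT 22 replicate 2. Nr4a1, an orphan receptor induced by contraction and adrenergic input, ranged from 34.9 CPM at ZT 22 to 248 CPM at ZT 14 (amplitude 1.11 ± 0.15 (SE), peak ZT 12.1 ± 0.512 h (SE), adjusted p = 0.00246).

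Among 18 mitochondrial regulators 3 were rhythmic (16.7%), near the 11.7% of all genes, and 2 or 3 with 1 library left out. Nrip1 encodes RIP140, a corepressor of oxidative genes in muscle, and had 18.1 and 29.3 CPM at ZT 2, 23.1 and 22 at ZT 6, 44.9 and 52.1 at ZT 10, 91 and 100.1 at ZT 14, 44.6 and 57.1 at ZT 18, and 26.4 and 31.3 at ZT 22. The ZT 14 libraries stood above all others, with an amplitude of 1.01 ± 0.13 (SE) and a peak at ZT 14.5 ± 0.476 h (SE) (adjusted p = 0.00163). Pprc1, a coactivator related to PGC-1, peaked at ZT 15.1 with an amplitude of 0.31 (adjusted p = 0.00611). Of the clock modifiers 5 of 14 passed (35.7%, against 11.7% of all genes). The count was 3 without ZT 2 replicate 1, ZT 10 replicate 2, ZT 14 replicate 1 or any library of ZT 18 or 22. Wee1, Csnk1e and Sirt1 below are members of this list. Besides Usp2 the rhythmic members included the cell cycle kinase gene Wee1 (peak ZT 14.6, adjusted p = 0.00262), Csnk1e, a kinase of the PER proteins (amplitude 0.24, peak ZT 15.8, adjusted p = 0.00459) and the deacetylase gene Sirt1 (amplitude 0.21, peak ZT 12.2, adjusted p = 0.0414).

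Several genes of vessels and matrix peaked within 4 h of ZT 0. The basement membrane collagens Col4a1 and Col4a2 moved together. Col4a1 had 338 and 372 CPM at ZT 2, 333 and 362 at ZT 6, 229 and 253 at ZT 10, 161 and 176 at ZT 14, 297 and 248 at ZT 18, and 375 and 464 at ZT 22, lowest at ZT 14, with an amplitude of 0.56 ± 0.09 (SE) and a peak at ZT 1.14 ± 0.620 h (SE) (adjusted p = 0.00696). Col4a2, its neighbour on the other strand, whose transcripts overlap it, had an amplitude of 0.51 ± 0.09 (SE) and a peak at ZT 1.69 ± 0.643 h (SE) (adjusted p = 0.0089). Col5a3 ranged from 12.8 CPM at ZT 14 to 97.9 CPM in ZT 2 replicate 2, with an amplitude of 1.08, or 0.85 with the covariates (adjusted p = 0.00103 and 0.00101). Of the endothelial markers 2 of 6 passed (33.3%, against 11.7% of all genes). The count was 4 without ZT 2 replicate 2 and 1 without ZT 14 replicate 1. The 2 were the tight junction gene Cldn5 (amplitude 0.77, peak ZT 3.54, adjusted p = 0.00633) and Kdr, the main receptor for VEGF (amplitude 0.50, peak ZT 23.9, adjusted p = 0.0192). The other 4 endothelial markers and all 6 fibroblast markers did not pass. Collagen genes as a list had 5 rhythmic members of 42 (11.9%), no more than the background; this was 8 without ZT 2 replicate 1 and 3 without ZT 10 replicate 1, ZT 14 replicate 1 or either library of ZT 22.

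Several groups held a smaller share of rhythmic genes than the 11.7% of all genes tested, though proteasome and insulin signalling genes were near it. Of 76 oxidative phosphorylation genes, edgeR called 0 (1 at an unadjusted p under 0.05), with a median amplitude of 0.10 against 0.17 for all genes. Cytosolic ribosomal protein genes passed in 2 of 82 cases (2.44%, median amplitude 0.08), and proteasome subunit genes in 3 of 37 (8.11%, median 0.09). At an unadjusted p under 0.05 there were 10 and 13 of them, against 4915 of all 14339 genes tested. The ribosomal count was 0 or 1 without any 1 library, and the proteasome count was 1 without ZT 2 replicate 1 or ZT 18 replicate 1 and 0 without ZT 10 replicate 2, ZT 22 replicate 1 or either library of ZT 14. Insulin and growth factor signalling had 2 of 22 (9.09%, with 6 at an unadjusted p under 0.05). The insulin count was 1 without ZT 2 replicate 1, ZT 10 replicate 1, ZT 14 replicate 2, ZT 18 replicate 1 or either library of ZT 22. Pik3ca, the catalytic subunit of PI3 kinase, peaked at ZT 23.9 (amplitude 0.30, adjusted p = 0.0123). None of the 10 fast fibre and none of the 10 slow fibre markers passed, with 3 and 0 at an unadjusted p under 0.05 and median amplitudes of 0.27 and 0.36. With covariates 5 fast fibre markers passed. The skeletal muscle, erythroid, Schwann cell, hepatocyte, and macrophage and neutrophil markers also gave 0 calls, at 2, 0, 1, 0 and 3 genes with an unadjusted p under 0.05. Without ZT 14 replicate 1, which was high in hepatocyte markers, 4 of the 6 hepatocyte markers passed. That fit kept ZT 2 replicate 2, where these markers summed to 75.8 CPM against 1.60 CPM in ZT 2 replicate 1. Of the macrophage and neutrophil markers 2 passed without ZT 10 replicate 1, and of the fibroblast markers 1 passed without ZT 10 replicate 2.

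**Figure D5:**
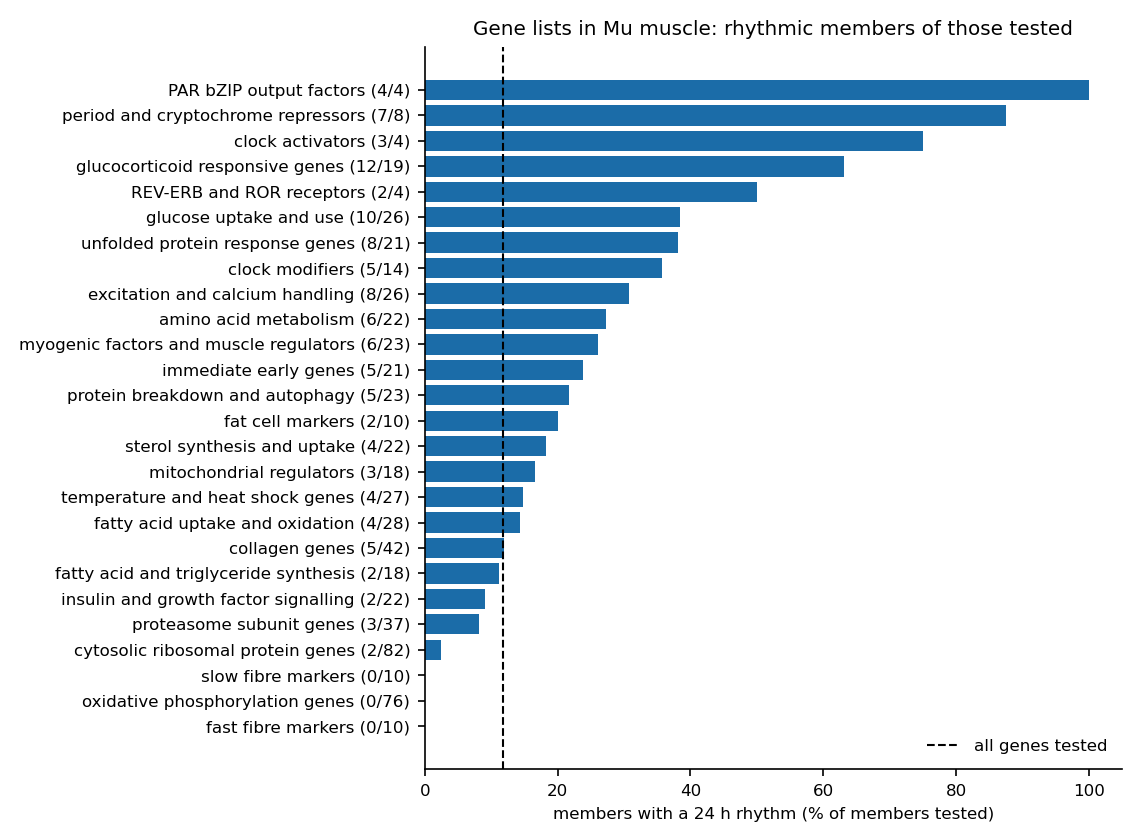
Share of the tested members of the gene lists drawn that had a 24 h rhythm, in percent, with the numbers of rhythmic and tested members in brackets. The erythroid, macrophage and neutrophil, Schwann cell, hepatocyte, fibroblast, endothelial and skeletal muscle markers are not drawn. The dashed line marks the 11.7% of all genes tested. Of the lists drawn, the clock lists lie far above it, and the fibre and oxidative phosphorylation lists are at 0.

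A 12 h component was tested beside the 24 h terms, since 6 time points 4 h apart allow a second harmonic. Of 14513 genes edgeR called 0 (0.0%), the smallest adjusted p being 0.243, while 1349 genes (9.30%) had an unadjusted p under 0.05. DESeq2 called 213 and edgeR called 2 without ZT 18 replicate 1.

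The rhythm of Mu muscle was compared with that of the 15 Hu muscle libraries of the same host strain in a joint fit. A different rhythm was called for 10 of 14964 genes (0.0668%), 9 of them among the 1682 rhythmic genes of Mu muscle, with 2018 genes at an unadjusted p under 0.05. The genes named here that differed peaked earlier in Hu muscle. Nr1d2 peaked at ZT 11.2 in Mu and ZT 6.79 in Hu, a difference of -4.42 h (adjusted p = 0.0224), and Nr1d1 at ZT 5.24 and ZT 1.93 (-3.32 h, adjusted p = 0.0406). Usp2 peaked at ZT 13.2 and ZT 8.64 (adjusted p = 0.0314), and Nrip1 at ZT 14.5 and ZT 11.1 (adjusted p = 0.0314).

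For most of the rhythmic genes described above the difference did not pass. Dbp peaked at ZT 10.6 and ZT 5.95 (adjusted p = 0.072), Arntl at ZT 23 and ZT 19.1 (adjusted p = 0.142) and Per2 at ZT 14 and ZT 10.8 (adjusted p = 0.104). Mylk4 had an amplitude of 1.24 in Mu and 0.60 in Hu (adjusted p = 0.355), and G0s2 of 2.37 and 1.16 (adjusted p = 0.203). An adjusted p above the threshold does not show that such rhythms were alike. The count of differing genes was 1 with the fibre and fat covariates. It was 0 without ZT 2 replicate 1, ZT 6 replicate 1 or ZT 14 replicate 2 of the Mu arm, 1 without ZT 10 replicate 1 or ZT 14 replicate 1, 3 without ZT 6 replicate 2 or either library of ZT 18, and 4 without either library of ZT 22.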

How the data were processed

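RNA was extracted from skeletal muscle with a silica column kit, and libraries were made with a kit that keeps strand, per the labels' protocols. The authors deposited raw counts per mouse gene, 1 column per library, for muscle and 2 hypothalamic regions together. STAR and the builds GRCm38, mm10, hg38, GRCh38 and hg19 are named, per the submitters' processing notes; the counting program, its strand setting and the annotation are not given in the sources used here. The 12 Mu muscle columns were used for the rhythm, and the 15 Hu muscle columns for 1 comparison. Symbols from the reference table matched 20329 of 20415 rows. Gene positions come from the annotation of GRCm38, and promoters from RefSeq (GRCm38.p6).

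Counts were fitted with edgeR 4.0.16 in R 4.3.3 (filterByExpr, TMM, quasi-likelihood F test of a cosine and a sine of 24 h, 9 residual degrees of freedom), with Benjamini-Hochberg adjustment over all genes tested and a threshold of 0.05. All adjusted p-values come from edgeR unless another tool is named. Amplitude and peak were fitted by least squares to log2 CPM (prior count 2), with SEs by the delta method, and folds are on that scale. CPM printed per library are counts scaled to the TMM library size. Tested on simulated counts for the rhythm of 14339 genes, the fit called 12% of genes with a log2 amplitude of 0.3, 62% at 0.5, 76% at 1, 98% at 2, and 4 of 14139 without a rhythm. Only 50 genes were given each of these amplitudes, far fewer in all than were called in the data, which makes the adjustment stricter. Each gene was drawn independently, without the fat cell and fibre differences that libraries shared. The simulated shares therefore need not hold for these data. In the simulation, small rhythms were often not detected at this depth and number of libraries.

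Named genes were the clock lists, the 10 rhythmic genes outside them with the smallest p, the 10 with the largest amplitude at a mean CPM of at least 1, the 3 with the smallest p in each 4 h window of peak time, and up to 4 with the smallest p in each other of 33 lists. Other genes named are Slc2a4, Hk2, Pdk4, Pdp1, Slc16a1, Fkbp5, Nr3c1, Sgk1, Fbxo32, Trim63, Adipoq, Plin1, Psat1, Amd1 and Trib3, chosen after their values were seen. Values of some genes are not reported here. The members and lists were chosen with earlier results of these data known. Alternatives were another scaling, no filter, DESeq2 1.42.0, limma voom, the replicate number as a block, marker scores as covariates, ZT as a factor, 12 h terms, a joint fit with Hu, and each library left out; leaving out each time point was added after seeing the data.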

Additional observations from a re-analysis of the deposited data

Results flagged for a closer look

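The peak times of 4 named genes differed between Hu and Mu muscle by the interaction test of the joint edgeR fit, each earlier in Hu. The difference, Hu minus Mu, was -3.32 h for Nr1d1 (adjusted p = 0.0406), -4.42 h for Nr1d2 (adjusted p = 0.0224), -3.33 h for Nrip1 (adjusted p = 0.0314) and -4.58 h for Usp2 (adjusted p = 0.0314). The test takes amplitude and peak time together. Groups of 2 libraries are too small to test for a library far from the rest.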

How the results depend on the processing

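The count of 1682 rhythmic genes was 1644 with DESeq2's size factors, 1365 with no filter, 1596 with limma voom, 1884 with the marker covariates and 1926 beside 12 h terms. It was 3567 with DESeq2's test, 375 with ZT as a factor, which spends more terms on the same 12 libraries, and 711 in the joint fit with Hu. Of the 1682 genes, 1675 were among those of DESeq2 and 667 among those of the joint fit. Leaving out 1 library gave 867 to 1686 genes, and leaving out a whole time point, added after seeing the data, gave 1256 without ZT 2, 1556 without ZT 6, 997 without ZT 10, 463 without ZT 14, 555 without ZT 18 and 523 without ZT 22. The cause of these differences was not tested. For the 12 h component the count of 0 became 213 with DESeq2, and ran from 0 to 2 without 1 library. For a different rhythm in Hu the count of 10 became 171 with DESeq2, 1 with covariates, 15 with no filter, and 0 to 9 without 1 Mu library. With the replicate number as a block the counts were 1561, 0 and 11, and 1436 of the 1561 rhythmic genes were among the 1682. The numbers did not meet the rule for pairing, that every pair exceed 0.1: over 12 pairs of a Mu and a Hu library of 1 time point and number, the mean correlation of deviations across genes was 0.0295 (-0.147 to 0.481), and 3 exceeded 0.1. Over 15 pairs of Mu replicate 1 libraries of different time points it was 0.0205 (-0.480 to 0.339), and 7 exceeded 0.1. Slow fibre markers were higher in replicate 1 at 6 of 6 time points. For named genes a peak shift of 6 h was set as a reversal, and no alternative was labelled so. The counts of genes, and of peaks by window, did change. For the named genes' rhythm, 3369 of the alternative values kept the call, 64 gained it and 562 lost it, all with the direction kept. Depth was 50.9 M counts or more per library, with 2 libraries per time point. Which of these limited the precision was not tested.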
